A study of Mus musculus with 6 samples.

Results

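The genes described here are 6 genes of the extracellular matrix and its remodelling in the mouse uterus: the proteases Mmp3, Plat and Adamts4 and the matrix proteins Dcn, Fmod and Thbs1. They were taken as every probe set (a group of array probes that reads one transcript) annotated to these 6 of the 987 named genes in the table. This gave 10 probe sets, of which 9 carry 1 gene symbol and 1 is annotated to both Pald1 and Thbs1. Uterine RNA of female mice at 3.5 days post coitum, shortly before the embryo implants, was hybridised to Affymetrix expression arrays. Mice labelled Stat3 f/f, read here as floxed, intact Stat3, gave 3 arrays (replicates 1, 2 and 4). They were set against mice labelled Stat3 d/d, read here as deletion of both copies, with 3 arrays (replicates 1, 2 and 3). The sources used here do not give the Cre driver, the strain, the age or how many animals stand behind an array. The p-values therefore measure only the spread between these arrays, which may be technical.

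The extracellular matrix of the uterus is a network of collagen, proteoglycans and adhesive glycoproteins that is loosened and rebuilt as the tissue prepares for an embryo. Mmp3 encodes stromelysin, a secreted zinc protease that cuts proteoglycans, laminin and fibronectin and activates other matrix metalloproteinases. Plat encodes tissue-type plasminogen activator, the serine protease that turns plasminogen into plasmin. Adamts4 encodes an aggrecanase, a zinc protease that cuts the large proteoglycans aggrecan and versican. Dcn (decorin) and Fmod (fibromodulin) are small leucine-rich proteoglycans that bind collagen fibrils and control their assembly. Thbs1 encodes a thrombospondin, an adhesive glycoprotein that activates latent TGF-beta and restrains the growth of blood vessels. Stat3 encodes a transcription factor that interleukin-6 and related cytokines switch on.

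The probe sets in the table had been chosen by this very comparison. Each of its 1382 probe sets has group means that differ by 1.5-fold or more, and in none do the groups overlap. All 1382 (100%) also passed an adjusted p of 0.05 in limma, so a pass says nothing particular about a gene, and a gene outside the table was not analysed here. The deleted gene, Stat3, was at 118 ± 14.9 in Stat3 d/d against 287 ± 60.8 in Stat3 f/f by its brighter probe set (mean intensity ± SD, n = 3). Signal of this probe set thus remained in Stat3 d/d. The number of arrays limits the precision.

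Promoter sequence from RefSeq (build GRCm38.p6) was at hand for 2 of the 6 genes, Mmp3 and Fmod, a protease and a matrix protein that both fell. The 250 bases before the annotated start are shown 5′ to 3′ on the + strand, because both genes were lower in Stat3 d/d and the letters show which factor motifs these windows hold. They lie at chr9:7445572-7445821 for Mmp3 and chr1:134037004-134037253 for Fmod. Capitals mark matches to 3 motifs searched on both strands. The AP-1 motif was spelled TGANTCA. The STAT motif was spelled TTCNNNGAA. The core promoter box was spelled TATAAA.
Mmp3: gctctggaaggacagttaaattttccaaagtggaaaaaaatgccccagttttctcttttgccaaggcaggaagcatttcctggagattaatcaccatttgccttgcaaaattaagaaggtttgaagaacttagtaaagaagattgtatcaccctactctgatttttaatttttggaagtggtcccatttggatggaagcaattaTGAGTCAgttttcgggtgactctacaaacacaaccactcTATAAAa
Fmod: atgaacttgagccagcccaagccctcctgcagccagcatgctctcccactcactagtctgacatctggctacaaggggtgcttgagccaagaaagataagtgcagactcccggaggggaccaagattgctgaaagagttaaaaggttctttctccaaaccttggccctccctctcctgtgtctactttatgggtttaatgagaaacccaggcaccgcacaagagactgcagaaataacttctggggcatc
The Mmp3 window holds 1 AP-1 match, TGAGTCA, which lies 46 to 40 bases before the start, and 1 match to the core promoter box, 7 to 2 bases before it. The matches do not overlap. The Fmod window holds none of the 3 motifs, and the STAT letters are in neither window. Among 32851 promoter windows of the same length, 6.75% hold the AP-1 letters, 7.02% the STAT letters and 12.4% those of the core promoter box. A match is a description of the letters, not a site of binding.

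By the probe set that represents each gene, 5 of the 6 genes were lower and 1, Thbs1, was higher in Stat3 d/d. Of all 987 genes in the table, 33.1% were called lower and 66.9% higher. The representative is the probe set, among those with 1 symbol, with the highest mean over the 6 arrays. All 3 proteases fell by this probe set, and of the matrix proteins Dcn and Fmod fell while Thbs1 rose. Because the members were chosen with results of these data known, these counts are a description.

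**Figure D1:**
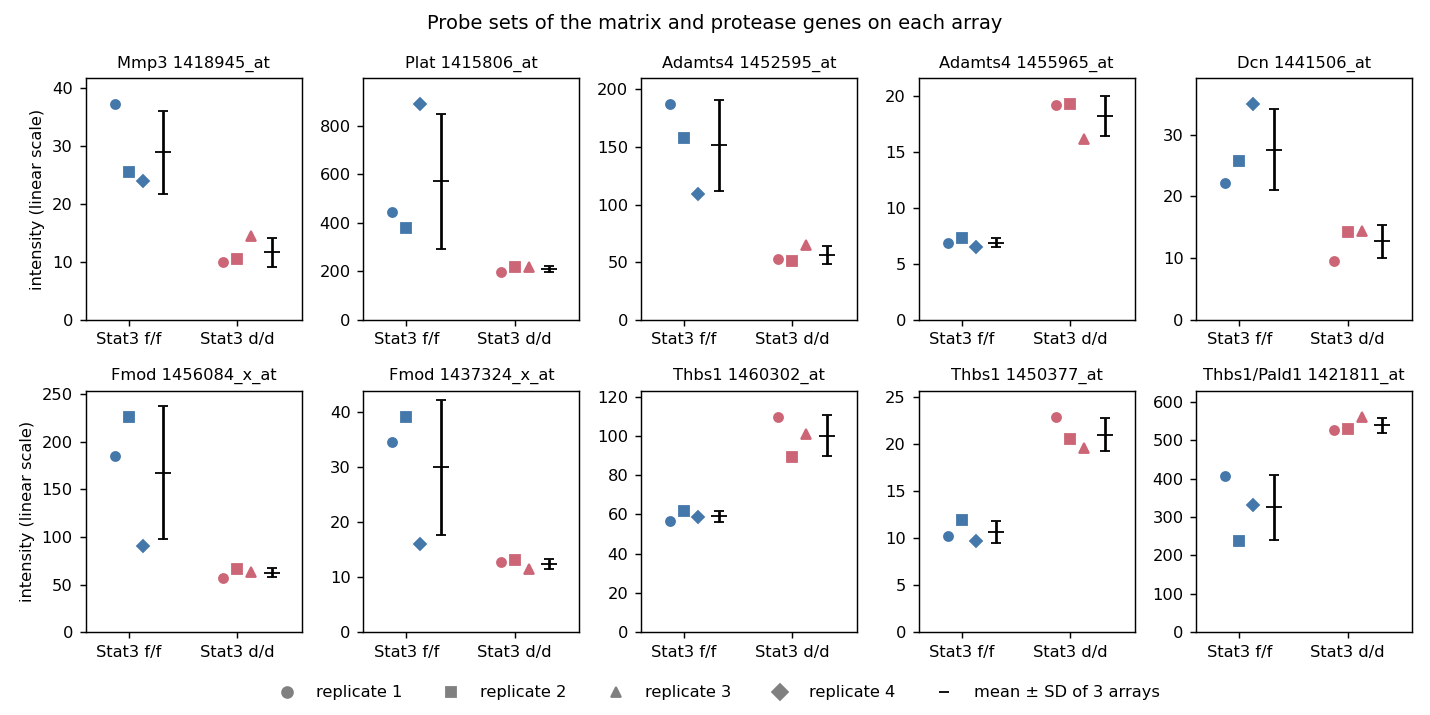
Intensity (linear scale, axes from 0) of each of the 10 probe sets on the 3 Stat3 f/f arrays (blue) and the 3 Stat3 d/d arrays (red), with marker shapes for the replicate numbers and black bars for the mean ± SD of 3 arrays. The groups are apart in every panel, 6 probe sets are lower and 4 higher in Stat3 d/d, and Plat and both Fmod probe sets are widely spread only in Stat3 f/f.

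Mmp3, the stromelysin gene, was read by 1 probe set, 1418945_at. Its intensity was 37.2, 25.5 and 24.0 on Stat3 f/f replicates 1, 2 and 4, and 9.91, 10.6 and 14.6 on Stat3 d/d replicates 1, 2 and 3. The highest Stat3 d/d array thus stayed under the lowest Stat3 f/f array, which was 1.65 times as bright. The means were 28.9 ± 7.23 and 11.7 ± 2.51 (SD, n = 3), so that Stat3 d/d held 40.4% of the intensity of Stat3 f/f. The log2 change, taken on log2(intensity + 1) as Stat3 d/d minus Stat3 f/f throughout, was -1.23 (95% interval -1.71 to -0.75, limma adjusted p = 0.000711). With a pseudocount of 16 instead of 1 the change was -0.69, as the probe set is dim.

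Plat, the plasminogen activator gene, was read by the probe set 1415806_at, at 445, 378 and 888 on the Stat3 f/f arrays and 197, 218 and 216 on the Stat3 d/d arrays. Replicate 4 of Stat3 f/f stood far above the other two, whereas the Stat3 d/d arrays lay within 1.11-fold of each other. The groups did not overlap. The means were 570 ± 277 and 210 ± 11.5 (SD, n = 3), which leaves 36.9% in Stat3 d/d. Plat fell by 1.33 on the log2 scale (95% interval -1.95 to -0.71, limma adjusted p = 0.00172). Without Stat3 f/f replicate 4 the change was -0.96.

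Adamts4, the aggrecanase gene, had 2 probe sets, and they moved in opposite directions. The brighter, 1452595_at, gave 187, 158 and 109 on the Stat3 f/f arrays and 52.9, 50.8 and 65.3 on the Stat3 d/d arrays. It was lower on every Stat3 d/d array, at 37.3% of the Stat3 f/f mean, with means of 151 ± 39.4 and 56.4 ± 7.82 (SD, n = 3). Its log2 change was -1.38 (95% interval -1.87 to -0.90, limma adjusted p = 0.000395). The other, 1455965_at, gave 6.87, 7.37 and 6.51 on the Stat3 f/f arrays and 19.2, 19.3 and 16.2 on the Stat3 d/d arrays. It was 2.64-fold higher in Stat3 d/d, with little spread in either group, and its Stat3 f/f values lay near the lowest intensity of the table, 2.47. The log2 change was 1.28 (95% interval 0.92 to 1.64, limma adjusted p = 0.000104), and 0.58 with a pseudocount of 16. Averaged over both probe sets the change of Adamts4 was -0.05 (SE 0.17, limma adjusted p = 0.768), so that its fall among the proteases rests on the brighter probe set. Which transcripts or parts of the gene each one reads was not examined.

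Dcn, the decorin gene, was read by 1 dim probe set, 1441506_at. It gave 22.2, 25.7 and 34.9 on the Stat3 f/f arrays and 9.59, 14.2 and 14.4 on the Stat3 d/d arrays. Each Stat3 d/d array was below each Stat3 f/f array, and the Stat3 d/d mean was 46.1% of the Stat3 f/f mean (12.7 ± 2.71 against 27.6 ± 6.58, SD, n = 3). The log2 change was -1.06 (95% interval -1.54 to -0.57, limma adjusted p = 0.00168), and -0.60 with a pseudocount of 16. Decorin is an abundant product of stromal fibroblasts, and probe sets of Dcn outside the table were not analysed here.

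Fmod, the fibromodulin gene, was read by 2 probe sets. The suffix of their names marks probes that may also bind other transcripts. The brighter, 1456084_x_at, gave 185, 226 and 90.2 on the Stat3 f/f arrays and 57.2, 66.1 and 63.6 on the Stat3 d/d arrays. The other, 1437324_x_at, gave 34.6, 39.2 and 16.1 on the Stat3 f/f arrays and 12.7, 13.1 and 11.4 on the Stat3 d/d arrays. In both, Stat3 f/f replicate 4 was the lowest of its group and came close to the Stat3 d/d arrays, 1.36 and 1.23 times the brightest of them. The log2 changes were -1.31 (SE 0.29, limma adjusted p = 0.00229) and -1.12 (SE 0.28, limma adjusted p = 0.00413). Without Stat3 f/f replicate 4 they were -1.70 and -1.50, and without replicate 2 they were -1.04 and -0.88. With a pseudocount of 16 the dimmer gave -0.66.

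Thbs1, the thrombospondin gene, was the exception among the 6 genes. Its representative probe set, 1460302_at, gave 56.4, 61.7 and 58.8 on the Stat3 f/f arrays and 109.8, 89.1 and 101 on the Stat3 d/d arrays. The Stat3 f/f arrays lay within 1.09-fold of each other and every Stat3 d/d array was above them, with means of 59.0 ± 2.62 and 100.01 ± 10.4 (SD, n = 3). The log2 change was 0.75 (95% interval 0.39 to 1.11, limma adjusted p = 0.00210), a 1.70-fold higher mean.

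The second Thbs1 probe set, 1450377_at, rose from 10.3, 11.98 and 9.72 on the Stat3 f/f arrays to 23.0, 20.6 and 19.6 on the Stat3 d/d arrays, a log2 change of 0.92 (SE 0.17, limma adjusted p = 0.000788). It was 0.47 with a pseudocount of 16. The probe set annotated to both Pald1 and Thbs1, 1421811_at, gave 406, 238 and 332 on the Stat3 f/f arrays and 526, 530 and 561 on the Stat3 d/d arrays (0.76, SE 0.21, limma adjusted p = 0.00544). Since that one cannot be assigned to either gene, it was left out of the counts by gene. The 2 probe sets annotated to Thbs1 alone both rose.

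**Figure D2:**
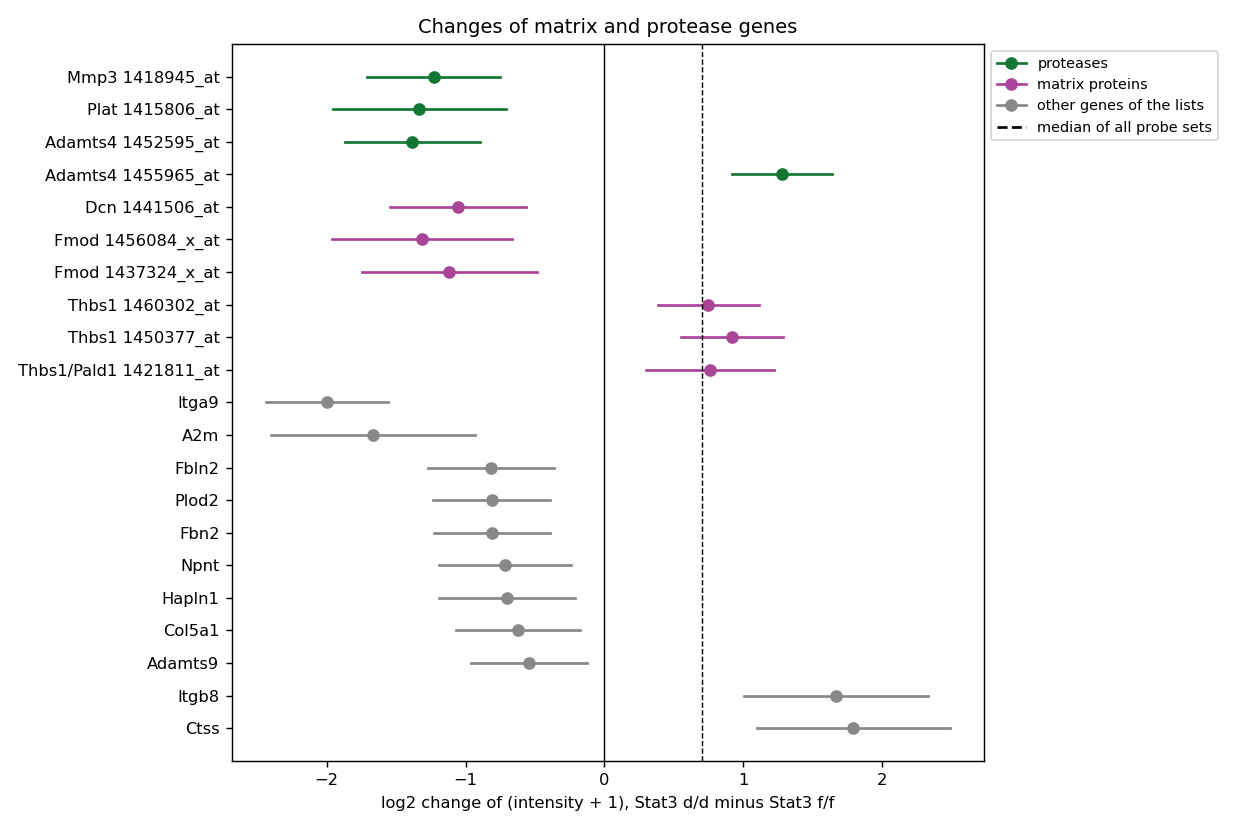
Log2 change (Stat3 d/d minus Stat3 f/f, on log2(intensity + 1)) with its 95% interval from limma for the 10 probe sets of the proteases (green) and matrix proteins (purple) and for the 11 other genes of the matrix and protease lists in the table (grey); the dashed line is the median of all 1382 probe sets, 0.70. The falling probe sets of the 5 genes lie between -1.38 and -1.06, the dimmer Adamts4 probe set and the Thbs1 probe sets to the right of 0.

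Set side by side by representative probe sets, the 3 proteases spanned a narrow range of log2 changes, from -1.38 to -1.23 with a median of -1.33. That narrow range rests on the brighter Adamts4 probe set, since averaging both probe sets put Adamts4 at -0.05. The 3 matrix proteins spanned -1.31 to 0.75 with a median of -1.06. The median over all genes of the table was 0.70, and over the genes that fell it was -0.78. The change of Fmod lay within the range of the proteases, and that of Dcn within the 95% interval of each of them. Thbs1 and the dimmer Adamts4 probe set were higher. No test was made between the classes. Among the 451 probe sets that fell, those of Mmp3, Plat, Adamts4 and Fmod (the brighter probe sets) had larger falls than 82.9%, 85.1%, 86.9% and 84.9% of them, and that of Dcn a larger fall than 74.1%. The rise of Thbs1 was larger than 32.2% of the 931 rises.

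The direction of each of the 10 probe sets was the same under all settings tried, but the size and some calls were not. As the groups overlap in no probe set of the table, only rescaling the arrays could have reversed a direction. Centring each array on its median in the table brought the median change over all probe sets down from 0.70 to 0.24, and quantile normalization brought it to 0.25. The table's calls went from 931 higher and 451 lower (67.4% and 32.6%) to 422 and 451 after centring (30.5% and 32.6% of probe sets), and to 436 and 451 after quantile normalization (31.5% and 32.6%). Relative to the median of all probe sets, Thbs1 stood 0.04 above it, while Mmp3, Plat, Adamts4, Dcn and Fmod (representative probe sets) stood at -1.93, -2.04, -2.09, -1.76 and -2.01 from it, respectively. That median is of probe sets selected to differ, most of them rises, so it does not mark a level of no change. Thbs1 lost its call after both scalings, with changes of 0.28 (limma adjusted p = 0.157) and 0.36 (0.0843). The probe set shared with Pald1 lost it as well, and the dimmer Thbs1 probe set kept it, at 0.45 under both. The representative probe sets of the 3 proteases, of Dcn and of Fmod, and the second Fmod probe set, kept their calls with larger falls. The dimmer Adamts4 probe set kept its call as a smaller rise, at 0.81 under both. Both scalings level the arrays over probe sets selected to differ, 67.4% of them called higher, and this alone lowers the Stat3 d/d arrays. The table, being selected, cannot show which scaling is right.

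If 45000 tests were assumed, about the number of probe sets on such an array, 37.5% of the table's probe sets passed. Of the members, Mmp3 and both Adamts4 probe sets passed, as did the dimmer Thbs1 probe set. Plat (limma adjusted p = 0.0562), Dcn (0.0546), both Fmod probe sets (0.0746 and 0.134), the brighter Thbs1 probe set (0.0684) and the one shared with Pald1 (0.177) did not.

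**Figure D3:**
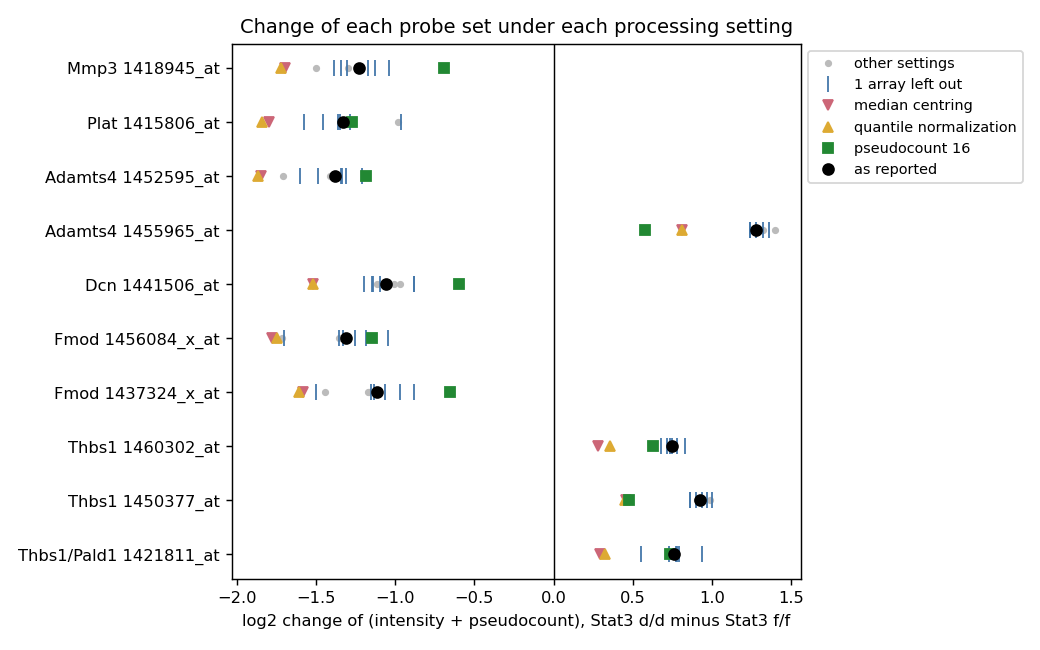
Log2 change (Stat3 d/d minus Stat3 f/f) of each probe set as reported (black) and under the other settings, with 1 array left out as blue bars, median centring and quantile normalization as triangles and a pseudocount of 16 as green squares. Both scalings shift every probe set to the left, so that falls become larger and the rise of Thbs1 1460302_at shrinks to 0.28 and 0.36, and the larger pseudocount draws the dim probe sets towards 0.

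The 5 genes that fell were not highest on the same Stat3 f/f array. Stat3 f/f replicate 4 was the highest of its group for Plat and Dcn, by 0.74 and 0.35 above the group mean on the log2 scale. The same array was the lowest of its group for Mmp3, Adamts4 and both Fmod probe sets, at -0.23, -0.43, -0.78 and -0.76 from the mean. The spread within Stat3 f/f (SD of log2 values) was 0.65 for Plat and 0.69 and 0.67 for Fmod, against a median of 0.22 over all probe sets. Only 3.5%, 2.7% and 3.2% of the table's probe sets were more spread in Stat3 f/f than these. In Stat3 d/d the SDs of Plat and Fmod were 0.08, 0.11 and 0.09, under the table's median of 0.17. The representative Thbs1 probe set had an SD of 0.06 in Stat3 f/f, and 93.7% of the table's probe sets were more spread. The second Thbs1 probe set had 0.14 and the one shared with Pald1 0.39.

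**Figure D4:**
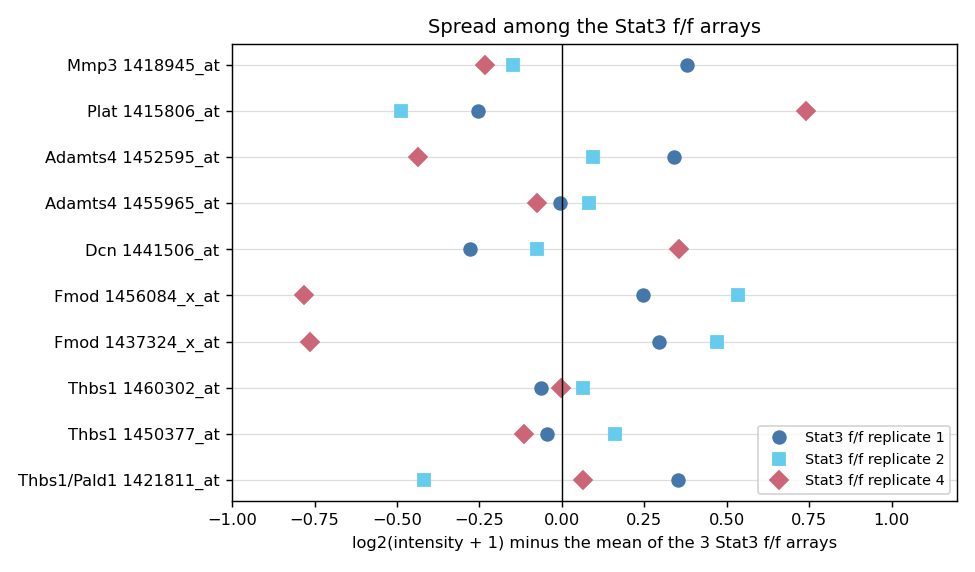
Log2(intensity + 1) of each Stat3 f/f array minus the mean of the 3 Stat3 f/f arrays, for the 10 probe sets, with marker shape and colour for replicates 1, 2 and 4. Replicate 4 lies at the right end for Plat (0.74) and Dcn (0.35) and at the left end for both Fmod probe sets (-0.78 and -0.76) and the brighter Adamts4 probe set (-0.43).

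The likeness of 2 genes was measured as the root mean square difference of their 6 log2 values after each gene was centred on its own mean, with 1 probe set a gene. Among the members, Mmp3 and Adamts4 were closest, at 0.16, and Adamts4 and Fmod followed at 0.26. Plat and Dcn differed by 0.30, while Plat and Fmod differed by 0.78. Of all other named genes in the table, those nearest to Mmp3 were Gnb4 (0.11), a G protein subunit, and Trps1 (0.11), a transcription factor. Plat was nearest to Dio2 (0.13), a deiodinase that activates thyroid hormone, and to the glycolytic enzyme gene Aldoc (0.15). Adamts4 was nearest to Rgs5 (0.13), a regulator of G protein signalling, and then to Mmp3. Fmod was also nearest to Rgs5 (0.22), followed by Fxyd2 (0.24), a regulator of the sodium pump. Dcn was nearest to Tnpo2 (0.10), a nuclear import receptor, and Cald1 (0.15), the actin-binding caldesmon. Thbs1 was nearest to Nosip (0.04) and the small GTPase gene Rap2b (0.06). With 6 arrays and a table of genes selected to differ, small distances are easily found, and they carry no test.

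Beside the members, 171 other genes of the matrix and its turnover were listed by role, and 11 of them were in the table, 9 lower and 2 higher, with a median of -0.72. Over all 987 genes in the table, 33.1% were lower and 66.9% higher, with a median of 0.70. How large a share of all genes on the array reached the table was not examined. Of 36 matrix proteases, 5 were in the table. Besides the 3 members these were Adamts9, a protease that cuts versican and aggrecan, which fell by 0.54 (SE 0.19), and the lysosomal cathepsin Ctss, which rose by 1.79 (SE 0.31). Of 15 protease inhibitors and activator receptors only A2m, a broad inhibitor that traps proteases, was in the table. It fell from 550 ± 293 to 161 ± 39.5 (SD, n = 3), a log2 change of -1.67 (SE 0.33). Of 11 small leucine-rich proteoglycans, Dcn and Fmod were in the table.

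The remaining lists cover collagens, glycoproteins, large proteoglycans and receptors. Of 26 collagens and crosslinking enzymes 2 were in the table and lower: Col5a1, a chain of fibril-nucleating collagen V (-0.63, SE 0.20), and Plod2, the lysyl hydroxylase that prepares collagen for crosslinking (-0.81, SE 0.19). Of 42 matricellular and adhesive glycoproteins, the microfibril gene Fbn2 (-0.81, SE 0.19), Fbln2 (-0.82, SE 0.20) and the integrin ligand Npnt (-0.72, SE 0.21) fell, while Thbs1 rose. Hapln1, which links hyaluronan to proteoglycans, was the only one of 15 genes of large proteoglycans and hyaluronan, at -0.70 (SE 0.22). Its probe set was dim, at 7.86 ± 2.47 and 4.33 ± 0.60. Of 17 matrix receptors, the integrin chain gene Itga9 fell from 51.2 ± 10.1 to 12.03 ± 2.04 (-2.00, SE 0.20) and Itgb8, whose integrin activates latent TGF-beta, rose from 52.4 ± 27.4 to 156 ± 18.9 (1.67, SE 0.30). None of 15 TGF-beta and growth factor partners of the matrix was in the table. Every one of the 11 genes passed an adjusted p of 0.05 in limma, as all 1382 probe sets did.

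Several members stand in families that lie side by side in the genome. In the RefSeq gene order, the 5 protein-coding genes on each side of Mmp3 include the metalloproteinase genes Mmp13, Mmp12, Mmp1b, Mmp1a, Mmp10, Mmp8, Mmp27 and Mmp20, and none of these was in the table. Around Dcn lie the leucine-rich proteoglycan genes Lum, Kera and Epyc, and around Fmod lie Optc and Prelp, none of them in the table either. Of the 10 neighbours of Adamts4, Fcer1g and Ppox were in the table, at 1.28 and 0.67. Rasgrp1, at 0.73, was the only one of the 10 neighbours of Thbs1, and Plat had none.

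Some markers of cell types were also in the table, where 66.9% of genes were higher and 33.1% lower. In bulk tissue, fewer cells of a type and less RNA per cell cannot be told apart. Of 12 stromal markers, 2 were in the table, Dcn itself and Thy1, and both were lower, with a summed intensity of 371 to 585 in Stat3 f/f and 250.1 to 316 in Stat3 d/d. Of 12 epithelial markers, 2 were in the table and higher, Cldn3 and Cldn4 (516 to 815 against 1028 to 1209). Of 12 macrophage and dendritic cell markers, 5 were in the table and higher (265 to 398 against 684 to 1489), Ctss among them. Of 12 T and NK cell markers, 8 were in the table and higher (154 to 267 against 549 to 867). The mesothelial marker Upk3b, 1 of 6, was higher (10.9 to 17.6 against 21.0 to 29.1). None of the 8 smooth muscle and 8 endothelial markers was in the table, and no marker in it was listed at 0. The part of these shifts in the changes of the proteases and matrix proteins was not tested. Since the table is a selection, the labelled tissue could not be checked further against its markers.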

How the data were processed

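Uterine RNA on 3 Stat3 f/f and 3 Stat3 d/d arrays was grouped by the source names in the labels, with replicate numbers from the titles. The authors deposited an intensity for each probe set on a linear scale (2.47 to 4352), made with RMA per the submitters' processing notes. RMA gives log2 values, and the sources used here give neither the return to a linear scale nor the selection of probe sets and the genome build. No pair of arrays held the same values throughout.

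Of 1382 probe sets, the platform's annotation gave 1191 a single symbol (987 genes), 57 several and 134 none here. Of the identifiers, 1186 matched RefSeq (GRCm38.p6), which changed 0 symbols. Values were taken as log2(intensity + 1) and compared by limma 3.58.1 in R 4.3.3 (lmFit, eBayes), without covariates, and p-values were adjusted over the whole table by Benjamini-Hochberg, with a threshold of 0.05. A gene was represented by its probe set with the highest mean over the 6 arrays. The fit was tested on simulated data. Figures were drawn with matplotlib 3.10.9.

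The 6 genes and the lists were chosen with earlier results of these data known. Named genes were all member probe sets, Stat3, up to 6 genes a matrix or protease list, and the 2 genes most like each member; cell markers, and the genes lying beside members in the genome, were named in addition. Alternatives were other pseudocounts, scalings, variance models, weights by array, no dim probe sets, averaging the probe sets of a gene, 45000 assumed tests, the replicate block and leaving out each array.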

Additional observations from a re-analysis of the deposited data

How the results depend on the processing

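All 10 probe sets kept their direction under every alternative in which they were measured, and leaving out the dimmest probe sets removed only Adamts4 1455965_at. Only the scalings could have reversed a direction, since the groups overlap in no probe set of the table. The replicate block could not, because it averages the differences within numbers 1 and 2. Median centring ended the calls of Thbs1 1460302_at (0.28) and of 1421811_at (0.29), and quantile normalization likewise (0.36 and 0.33). With 45000 assumed tests the calls ended for Plat (-1.33), Dcn (-1.06), Fmod (-1.31 and -1.12), Thbs1 1460302_at (0.75) and 1421811_at (0.76), and 2 of the 9 other matrix genes that fell still passed. Over the table, calls were 422 higher after centring, 436 after quantile normalization, and 387 higher and 131 lower with 45000 assumed tests. The median of the proteases was -1.80 after centring and -1.84 after quantile normalization, and that of the matrix proteins -1.52 under both and -0.60 with a pseudocount of 16. The shift under both scalings follows from their lowering of the Stat3 d/d arrays, and the loss with 45000 tests from the larger number of tests.

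Leaving out 1 array at a time moved the matrix protein median between -1.19 and -0.88 and the protease median between -1.39 and -1.21, and ended no call of a member. The labels give numbers 1 and 2 to both groups. Deviations from the group means of same-numbered arrays correlated at 0.09 and 0.03 over probe sets, so the numbers were not taken as pairs. With the replicate block, which rests on those 2 numbers, no member lost its call: Mmp3 was at -1.50, Plat at -0.98, Adamts4 at -1.71 and 1.32, Dcn at -0.97, Fmod at -1.72 and -1.45, and Thbs1 at 0.74 and 0.91. The SEs under this block were nearly alike, from 0.23 (Fmod 1456084_x_at) to 0.25 (Thbs1 1421811_at). The calls it kept therefore say little about the spread of each probe set. Signal near the lowest intensity limits what the dim probe sets of Adamts4, Dcn, Fmod, Mmp3 and Thbs1 show.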
